A study of Mus musculus with 16 samples.

Results

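Bcl6, Bach2, Hhex, Tle3 and Ski encode repressors of transcription that are known from germinal centre and memory B cells. They were taken from the RNA-seq table by their symbols, 5 of its 23234 genes, and followed over 16 libraries in 6 groups of splenic B cells. All groups came from 1 design. Naive C57BL/6 B cells of genotype Bcl6-YFP(KI/+) B1-8hi(KI/+) were transferred into wild-type CD45.1+ recipients, which were immunized intraperitoneally with the hapten carrier NP-CGG in alum. At day 10 the spleens of 9 recipients were pooled, and donor cells (CD45.2+) that bound NP, carried IgG1 and lacked the plasma cell marker CD138 were sorted. The group LZ (3 libraries) held germinal centre light zone cells, gated as CD38-, CD86hi and CXCR4lo. Fraction 2 (2 libraries) and Fraction 3 (3 libraries) were taken from within that gate as Bcl6-YFPhi cells that were CD69hi or CD69lo, and are labelled as recycling-prone cells and cells under selection. Fractions 5, 6 and 7 (3, 2 and 3 libraries) were CD38+ and GL7-. Fraction 5, the pro-memory cells, was Bcl6-YFPhi and Efnb1hi. Fraction 6, the pre-memory cells, was Bcl6-YFPlo and Efnb1hi. Fraction 7, the mature memory cells, was Bcl6-YFPlo and Efnb1lo. All donor cells carried the reporter on 1 Bcl6 allele and a B1-8hi heavy chain knock-in, which favours NP binding, so no group stands for cells with 2 unmodified Bcl6 alleles or an unselected antigen receptor repertoire. Since the Bcl6 reporter was a sort marker, Bcl6 is described without a test wherever 2 gates differ in Bcl6-YFP or only 1 of them was set on it.

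BCL6 is a zinc finger repressor required for germinal centres, where it holds down genes of the DNA damage response, of cell exit and of plasma cell differentiation by recruiting SMRT, NCOR and BCOR corepressors with histone deacetylases. BACH2 is a basic leucine zipper repressor that pairs with small MAF proteins, restrains the plasma cell regulator Prdm1 and is known to favour class switching and the memory fate. HHEX is a homeodomain protein that acts mostly as a repressor and can recruit TLE proteins. TLE3 is such a Groucho family corepressor: it binds no DNA itself and is brought to genes by partners such as HHEX, PAX5, RUNX and TCF factors. SKI is a corepressor of Smad proteins, the effectors of TGF-beta signalling.

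BCL6 binds a short palindromic motif, TTCNNNGAA, that is shared with STAT factors, and is known to act on its own gene. The windows before RefSeq starts of Bcl6 and Bach2, the members that were lowest in Fraction 7, are shown because both genes' windows hold this motif. They are the 250 bases upstream of RefSeq start sites on GRCm38.p6, written 5′ to 3′ on the strand of the gene, with each match in capitals. The first Bcl6 start (chr16:23988853-23989102, minus strand) had 1 match, 118 bases upstream. The second Bcl6 start (chr16:23981284-23981533, minus strand) had 3 matches, at 168, 122 and 88 bases upstream, and its window lay in an intron of Bcl6 in the GENCODE annotation. The Bach2 start (chr4:32417185-32417434, plus strand) had 1 match, 140 bases upstream, and its window likewise lay in an annotated intron of Bach2, so whether B cells use this start is not known here.
Bcl6 start 1: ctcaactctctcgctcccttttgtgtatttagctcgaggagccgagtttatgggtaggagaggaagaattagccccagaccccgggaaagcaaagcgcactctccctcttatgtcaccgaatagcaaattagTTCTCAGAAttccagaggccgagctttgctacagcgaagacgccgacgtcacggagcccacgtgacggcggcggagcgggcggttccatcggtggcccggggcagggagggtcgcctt
Bcl6 start 2: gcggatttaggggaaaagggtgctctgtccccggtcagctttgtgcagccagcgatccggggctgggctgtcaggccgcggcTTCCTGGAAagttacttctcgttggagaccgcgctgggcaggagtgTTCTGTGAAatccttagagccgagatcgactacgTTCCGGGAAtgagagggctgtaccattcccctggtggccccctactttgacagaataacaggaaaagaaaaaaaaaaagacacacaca
Bach2 start 1: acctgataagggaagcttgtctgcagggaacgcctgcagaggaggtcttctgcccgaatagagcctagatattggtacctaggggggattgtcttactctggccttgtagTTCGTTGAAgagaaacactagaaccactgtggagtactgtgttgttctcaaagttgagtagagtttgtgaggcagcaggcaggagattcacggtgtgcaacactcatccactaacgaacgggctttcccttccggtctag
Of 32841 such windows in the genome, 7.0% held the motif on either strand and 9 windows, or 0.027%, held it 3 times or more, as the second Bcl6 start did. The windows of Hhex, Tle3 and Ski held none. TGAGTCA, a motif bound by BACH2 and by AP-1, was in 4.5% of windows and in none of the members' windows. The homeodomain core ATTAA, bound by HHEX among others, was in 24.9% of windows and in 1 of the members' windows, that of Tle3. The windows of Hhex and Ski were rich in G and C, at 76.0% and 87.6% against a median of 52.4%. In the GENCODE annotation the Hhex window overlapped exons of Hhex and Gm38345, and the Ski window exons of Ski. That of Tle3 overlapped exons of Gm10655. A match is a stretch of letters and not a measured binding site.

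Expression was given as FPKM (fragments scaled to transcript length and to the mapped fragments of the library). The FPKM of a library summed to between 416741 and 492578, between 10133 and 10552 genes reached 1 FPKM, and the smallest steps between low values put the depths within 0.922 to 1.21 of that of the first LZ library, while the number of reads itself is unknown. The summed FPKM of 5 pan-B cell markers, Cd79a, Cd79b, Ms4a1 and Pax5 among them, was 2274 to 2359 in Fraction 2 and between 2885 and 4174 in the other groups. The summed FPKM of 5 germinal centre markers lay between 411 and 616 for LZ and Fractions 2, 3 and 5. It was 222 to 225 for Fraction 6 and 48.5 to 62.4 for Fraction 7. That of 5 memory markers lay between 35.6 and 65.5 for LZ and Fractions 2 and 3. It was 124 to 128 for Fraction 5, 408 to 447 for Fraction 6 and 672 to 819 for Fraction 7. Some libraries stood apart. Libraries 2 and 3 of Fraction 7 had more RNA of the plasma cell markers Sdc1 and Igj than library 1. Sdc1 (CD138, used to sort plasma cells out) was at 4.44 and 4.51 FPKM against 0.502, and Igj (the J chain) at 296 and 292 against 46.9. The markers Prdm1 and Xbp1 were also lowest in library 1. Mzb1 went the other way and was highest there, at 235 FPKM against a lowest value of 211 in the group. Myeloid markers summed to 29.4 FPKM in library 3 of Fraction 3 against 1.93 and 0.401 in its other libraries, and to 45.8 in library 3 of Fraction 7 against 17.2 and 15.4. They summed to 21.0 in library 2 of LZ against 3.61 and 3.68, and to 10.5 in library 2 of Fraction 5 against 0.790 and 0.348. Of these markers, 2 differed by group. Itgam was 8.22 to 12.8 FPKM in Fraction 7, 0.649 to 1.53 in Fraction 6 and at most 0.322 elsewhere. Emr1 was 1.06 to 2.46 FPKM in Fractions 6 and 7 and at most 0.254 elsewhere. The summed FPKM of 6 T cell markers was 6.81 to 9.62 in Fraction 7 and between 19.8 and 36.9 in the other groups. Most of it was the kinase gene Lck, the only 1 of the 6 that passed the filter on low values, which fell by 2.07 on the log2 scale from LZ to Fraction 7 (adjusted p = 3.5e-08, limma). The T cell gene Cd3e was listed at 0 in every library but library 1 of Fraction 3, where it was 0.103, and Cd3g was at most 0.0926. Cd3d was between 0.0884 and 0.799 FPKM in every library. The means of Cd3d, Cd8a and Cd4 were highest in Fraction 7, at 0.486, 0.443 and 0.116 FPKM, so the fall of the sum was that of Lck.

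Bcl6, a gene on chromosome 16, was among the most abundant transcripts of the germinal centre groups. It measured 162, 155 and 177 FPKM in the LZ libraries, 145 and 146 in Fraction 2, 174, 182 and 205 in Fraction 3, and 191, 183 and 194 in Fraction 5. It measured 75.3 and 70.2 FPKM in Fraction 6 and 20.5, 18.4 and 15.01 in Fraction 7. The Fraction 2 libraries lay below all of Fractions 3 and 5, the libraries of Fractions 3 and 5 overlapped, and Fractions 6 and 7 lay below every other group and apart from each other. Group means were 165 ± 11.1 (SD, n = 3) in LZ, 146 ± 0.684 (SD, n = 2) in Fraction 2, 187 ± 16.1 (SD, n = 3) in Fraction 3 and 189 ± 5.61 (SD, n = 3) in Fraction 5. They were 72.8 ± 3.62 (SD, n = 2) in Fraction 6 and 18.0 ± 2.77 (SD, n = 3) in Fraction 7. Ranked among the 11266 genes tested, Bcl6 stood at percentile 95.7 or higher in every library of LZ and Fractions 2, 3 and 5, and at percentile 65.7 to 71.3 in Fraction 7. Fractions 6 and 7 were both sorted as Bcl6-YFPlo, and their Bcl6 RNA differed 4.05-fold. That change, -1.97 ± 0.11 on the log2 scale (SE, adjusted p = 8.47e-08, limma), was exceeded in size by 1.23% of genes. In these bulk libraries fewer cells expressing a gene and less RNA per cell cannot be told apart.

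Fractions 2, 3 and 5 were all selected as Bcl6-YFPhi, so their tests for Bcl6 compare gates already matched on the reporter. Within these gates Bcl6 RNA differed by little, which cannot be read apart from that selection. It was 1.28-fold lower in Fraction 2 than in Fraction 3, by -0.35 ± 0.11 on the log2 scale (adjusted p = 0.0391, limma), and this call was lost in 4 of the 5 fits that left out 1 library. It was 1.30-fold higher in Fraction 5 than in Fraction 2 (0.38 ± 0.11, adjusted p = 0.0113, limma), and this call was lost without either Fraction 2 library, with adjusted p = 0.0595 and 0.0548. Between the pro-memory cells of Fraction 5 and the CD69lo light zone cells of Fraction 3 the difference was 0.02 on the log2 scale with a 95% interval of -0.18 to 0.23 (adjusted p = 0.889). From Fraction 5 to Fraction 6, gates set apart by the reporter, the mean was 2.60-fold lower, and from LZ to Fraction 7 it was 9.17-fold lower. These 2 values describe the gates and carry no test. The order of the means was Fraction 5, Fraction 3, LZ, Fraction 2, Fraction 6 and Fraction 7, with overlap between Fractions 5 and 3 and between Fraction 3 and LZ.

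Bach2, on chromosome 4, followed the same outline at a lower level, with a deeper trough in the CD69hi light zone cells. It measured 36.5, 38.5 and 42.5 FPKM in LZ, 28.2 and 26.4 in Fraction 2, and 44.9, 50.2 and 53.1 in Fraction 3. It measured 50.6, 52.8 and 56.7 FPKM in Fraction 5, 30.9 and 32.8 in Fraction 6, and 13.2, 12.9 and 9.05 in Fraction 7. Fractions 3 and 5 overlapped at the top, each of the other groups was separate, and the Fraction 7 libraries were the lowest. Means were 39.2 ± 3.05 (SD, n = 3) in LZ, 27.3 ± 1.25 (SD, n = 2) in Fraction 2, 49.4 ± 4.19 (SD, n = 3) in Fraction 3 and 53.4 ± 3.10 (SD, n = 3) in Fraction 5. They were 31.9 ± 1.35 (SD, n = 2) in Fraction 6 and 11.7 ± 2.33 (SD, n = 3) in Fraction 7. Bach2 was 1.81-fold lower in Fraction 2 than in Fraction 3 (-0.83 ± 0.13 on the log2 scale, adjusted p = 0.00182, limma) and 1.95-fold higher in Fraction 5 than in Fraction 2 (0.94 ± 0.13, adjusted p = 6.4e-05). It fell 1.67-fold from Fraction 5 to Fraction 6 (-0.72 ± 0.13, adjusted p = 0.00143) and 2.72-fold from Fraction 6 to Fraction 7 (-1.39 ± 0.13, adjusted p = 6.57e-06). Between Fractions 5 and 3 it differed by 0.11 with an interval of -0.14 to 0.36 (adjusted p = 0.514). Each of these 4 calls was also made with any library omitted. The order of the means was Fraction 5, Fraction 3, LZ, Fraction 6, Fraction 2 and Fraction 7, and of neighbours in it only Fractions 2 and 7 differed past the threshold (-1.17, adjusted p = 3.06e-06). After quantile normalization Fraction 6 was also called higher than Fraction 2 (0.44, adjusted p = 0.0113). In the GENCODE annotation 537 exonic bases of Bach2 lie opposite the antisense gene Bach2os, whose reads an unstranded library cannot separate from those of Bach2. Bcl6 shares 21 such bases with Gm37419, and Hhex, Tle3 and Ski share none.

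**Figure D1:**
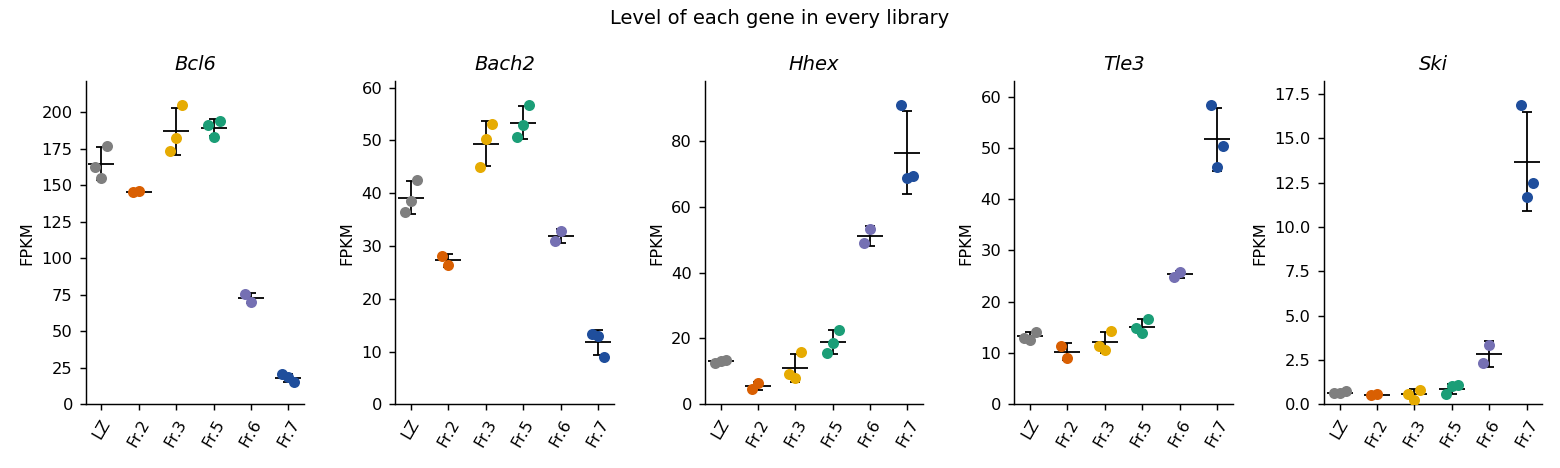
FPKM of Bcl6, Bach2, Hhex, Tle3 and Ski (1 panel each, linear axis from 0) in every library of the 6 groups, with points for libraries and bars for the mean and SD. Bcl6 and Bach2 are lowest in Fraction 7, where Bcl6 is 15.01 to 20.5 FPKM, while Hhex, Tle3 and Ski are highest there.

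Hhex, on chromosome 19, ran from its lowest level in the CD69hi light zone cells to its highest in mature memory cells. It measured 12.7, 13.3 and 13.5 FPKM in LZ, 4.69 and 6.34 in Fraction 2, and 9.30, 8.11 and 15.8 in Fraction 3. It measured 15.6, 18.6 and 22.7 FPKM in Fraction 5, 49.1 and 53.3 in Fraction 6, and 91.0, 68.8 and 69.5 in Fraction 7. Library 3 of Fraction 3 lay above LZ and within the range of Fraction 5, so that the range of Fraction 3 spanned LZ. Fractions 2, 6 and 7 were each separate from all other groups. Means were 5.51 ± 1.17 (SD, n = 2) in Fraction 2, 11.1 ± 4.14 (SD, n = 3) in Fraction 3, 13.2 ± 0.410 (SD, n = 3) in LZ and 18.9 ± 3.57 (SD, n = 3) in Fraction 5. They were 51.2 ± 2.97 (SD, n = 2) in Fraction 6 and 76.4 ± 12.6 (SD, n = 3) in Fraction 7, so that the extremes differed 13.9-fold. Between them Hhex moved from percentile 29.9 to 35.8 of the tested genes in Fraction 2 to percentile 93.1 to 94.3 in Fraction 7.

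Between pro-memory and pre-memory cells Hhex rose 2.70-fold (1.40 ± 0.22 on the log2 scale, adjusted p = 0.000549, limma), a call made in each fit that left out a library. From Fraction 6 to Fraction 7 the mean was 1.49-fold higher (0.56 ± 0.22, 95% interval 0.08 to 1.04), which missed the threshold at adjusted p = 0.0968 and passed it after quantile normalization (0.66, adjusted p = 0.0278) and median-ratio scaling (0.63, adjusted p = 0.0461). Hhex was 3.44-fold higher in Fraction 5 than in Fraction 2 (1.61 ± 0.22, adjusted p = 6.43e-05). It was 1.71-fold higher in Fraction 5 than in Fraction 3 (0.76 ± 0.20, adjusted p = 0.0113) and 2.01-fold lower in Fraction 2 than in Fraction 3 (-0.85 ± 0.22, adjusted p = 0.0224). Each of these last 2 calls depended on single libraries. Without library 3 of Fraction 3, which had the most myeloid marker RNA of its group, the difference of Fraction 2 from Fraction 3 was -0.58 (adjusted p = 0.0586) and that of Fraction 5 from Fraction 3 was 1.03 (adjusted p = 0.000683). The call of Fraction 5 against Fraction 3 was lost without library 2 of Fraction 3 (0.59, adjusted p = 0.0541) or library 3 of Fraction 5 (0.63, adjusted p = 0.052). The call of Fraction 2 against Fraction 3 was lost without library 1 (-0.67, adjusted p = 0.172) or library 2 (-1.03, adjusted p = 0.05) of Fraction 2. The part of myeloid RNA in these values was not tested.

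Tle3, on chromosome 9, was near level across LZ and Fractions 2, 3 and 5 and rose in both Bcl6-YFPlo fractions. It measured 13.0, 12.6 and 14.2 FPKM in LZ, 11.4 and 9.06 in Fraction 2, and 11.3, 10.5 and 14.4 in Fraction 3. It measured 14.9, 13.8 and 16.7 FPKM in Fraction 5, 24.9 and 25.8 in Fraction 6, and 58.4, 46.3 and 50.3 in Fraction 7. The first 4 groups overlapped in part, and Fractions 6 and 7 were each above all of them. Means were 13.2 ± 0.827 (SD, n = 3) in LZ, 10.2 ± 1.65 (SD, n = 2) in Fraction 2, 12.1 ± 2.03 (SD, n = 3) in Fraction 3 and 15.1 ± 1.45 (SD, n = 3) in Fraction 5. They were 25.3 ± 0.656 (SD, n = 2) in Fraction 6 and 51.6 ± 6.15 (SD, n = 3) in Fraction 7. Tle3 rose 1.67-fold from Fraction 5 to Fraction 6 (0.71 ± 0.13 on the log2 scale, adjusted p = 0.0022, limma) and 2.04-fold from Fraction 6 to Fraction 7 (0.99 ± 0.13, adjusted p = 0.000138). It was 1.48-fold higher in Fraction 5 than in Fraction 2 (0.53 ± 0.13, adjusted p = 0.00613), a call lost without library 2 of Fraction 2 (0.38, adjusted p = 0.0955). Against Fraction 3 the difference of Fraction 5 was 0.31 with an interval of 0.05 to 0.57 (adjusted p = 0.0688), and that of Fraction 2 was -0.22 with an interval of -0.51 to 0.07 (adjusted p = 0.311). The former passed without library 3 of Fraction 3 (0.43, adjusted p = 0.0172), after quantile normalization (0.40, adjusted p = 0.0146) and after median-ratio scaling (0.35, adjusted p = 0.0308).

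Ski, on chromosome 4, was at the low end of measured genes outside the Bcl6-YFPlo fractions. It measured 0.612, 0.630 and 0.739 FPKM in LZ, 0.530 and 0.554 in Fraction 2, and 0.577, 0.260 and 0.830 in Fraction 3. It measured 0.563, 1.01 and 1.07 FPKM in Fraction 5, 2.34 and 3.36 in Fraction 6, and 16.9, 11.7 and 12.5 in Fraction 7. The groups from LZ to Fraction 5 overlapped, apart from Fraction 2 against LZ and against Fraction 5, and Fractions 6 and 7 were each above every other library. Means were 0.660 ± 0.0689 (SD, n = 3) in LZ, 0.542 ± 0.0170 (SD, n = 2) in Fraction 2, 0.556 ± 0.285 (SD, n = 3) in Fraction 3 and 0.882 ± 0.278 (SD, n = 3) in Fraction 5. They were 2.85 ± 0.717 (SD, n = 2) in Fraction 6 and 13.7 ± 2.79 (SD, n = 3) in Fraction 7. Ski rose 3.23-fold from Fraction 5 to Fraction 6 and 4.81-fold from Fraction 6 to Fraction 7. The log2(FPKM + 1) scale compresses the change of a gene this low, and on it the steps were 1.03 ± 0.19 (adjusted p = 0.00194, limma) and 1.93 ± 0.19 (adjusted p = 1.06e-05). Among all genes, 1.31% had a larger change in size from Fraction 6 to Fraction 7. Ski reached 1 FPKM in 7 libraries of 3 groups and passed the filter on low values through those groups, while Bcl6, Bach2, Hhex and Tle3 reached it in all 16. These groups were Fractions 5, 6 and 7, so the calls of Ski in comparisons with them are no independent support. In no comparison among LZ and Fractions 2, 3 and 5 did Ski pass the threshold, and the difference of Fraction 5 from Fraction 3 was 0.28 with an interval of -0.09 to 0.65 (adjusted p = 0.246). The means of Hhex, Tle3 and Ski fell in the same order of Fractions 7, 6 and 5, LZ, and Fractions 3 and 2. Of neighbours in that order, Fractions 6 and 5 differed past the threshold for all 3 genes, Fractions 7 and 6 for Tle3 and Ski, and Fractions 3 and 2 for Hhex.

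Set against all genes, the members were called as follows. Bcl6 is the gene of the sort reporter. Its calls, here and along the CD38+ fractions, are therefore no independent support beside the shares over all genes. Between CD69hi and CD69lo light zone cells (Fraction 2 against Fraction 3), Bcl6, Bach2 and Hhex were lower, 3 of the 5 members, where 6.45% of all genes tested were called lower and 9.17% higher. In the same comparison 4 of the 5 pan-B cell markers were called lower, with a median of -0.45 on the log2 scale, and 5 of 5 were higher in Fraction 5 than in Fraction 2, with a median of 0.68. Their part in the members' values was not tested. The calls of Bcl6 and Hhex ended without a filter on low values (adjusted p = 0.0984 and 0.0765, limma) and in a fit of those groups alone (adjusted p = 0.0593 and 0.137). Between pro-memory and CD69lo light zone cells (Fraction 5 against Fraction 3), Hhex alone of the 5 was called, as higher, where 9.99% of genes were and 19.5% were called lower. In a fit of those groups alone its adjusted p was 0.0673. Between pro-memory and CD69hi light zone cells (Fraction 5 against Fraction 2), Bcl6, Bach2, Hhex and Tle3 were higher, 4 of 5, where 16.6% of genes were and 27.1% were lower. The comparisons of Fractions 3 and 5 with Fraction 2 share its 2 libraries. The direction of calls over all genes moved with the scaling. The share of higher among called genes was 58.7%, 33.9% and 38.0% in these 3 comparisons and 45.4%, 50.2% and 52.3% after quantile normalization.

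In the comparisons along the CD38+ fractions the members split by direction. Ski passed the filter on low values through Fractions 5, 6 and 7 alone, so its calls below add no independent support beside the shares over all genes. From pro-memory to pre-memory cells (Fraction 6 against Fraction 5), Hhex, Tle3 and Ski rose, where 7.07% of all genes did, and Bach2 fell, where 10.4% did. Bcl6 was lower in both Fraction 6 libraries and was not tested. From pre-memory to mature memory cells (Fraction 7 against Fraction 6), Tle3 and Ski rose, where 7.37% of genes did, and Bcl6 and Bach2 fell, where 13.9% did. Higher genes made up 34.7% of the calls of this comparison, and 45.0% after quantile normalization. From the light zone to mature memory cells (Fraction 7 against LZ), Hhex rose 5.81-fold (2.44 ± 0.20 on the log2 scale, adjusted p = 1.46e-07, limma), Tle3 3.90-fold (1.88 ± 0.12, adjusted p = 1.27e-08) and Ski 20.7-fold (3.13 ± 0.17, adjusted p = 2.75e-09). Bach2 fell 3.34-fold (-1.67 ± 0.12, adjusted p = 2.92e-08). In this comparison 24.1% of genes were called higher and 38.0% lower, so most genes moved. The median change over all genes was -0.10 on the log2 scale and 0.02 after either other scaling, which is small beside the changes of the members. The share of higher among called genes was 38.8%, and 50.0% after quantile normalization. Of 5 tested myeloid markers, 2 were called higher and 0 lower, both from Fraction 5 to Fraction 6 and from LZ to Fraction 7. Itgam and Emr1 reached 1 FPKM in Fractions 6 and 7 alone and passed the filter on low values through them. Any call of these 2 genes is therefore no independent support. The part of myeloid RNA in the members' values was not tested.

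**Figure D2:**
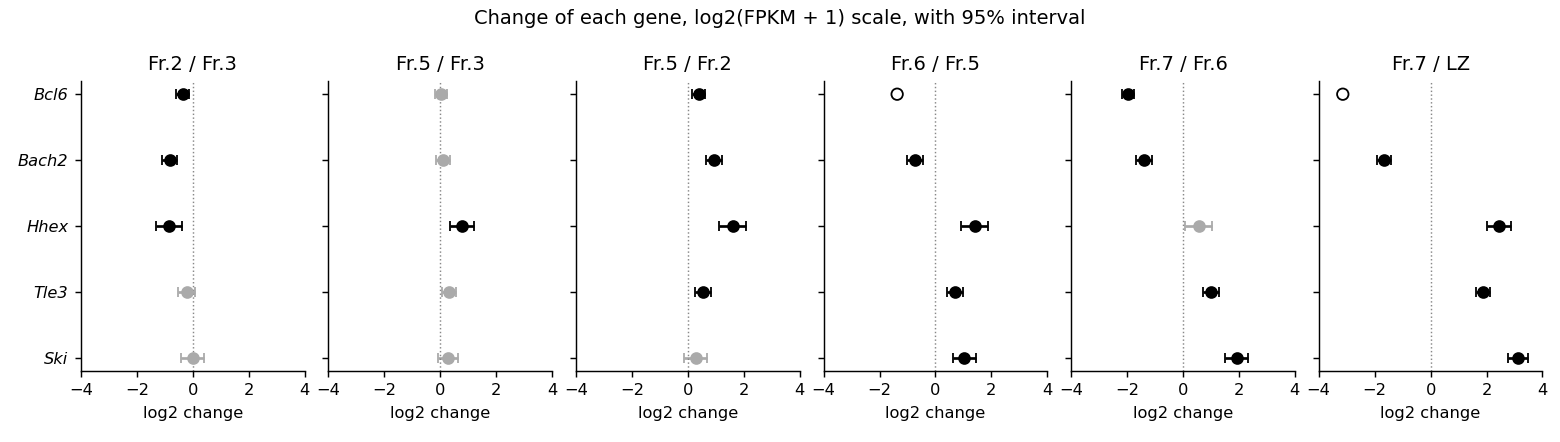
Change of each member in the 6 comparisons on the log2(FPKM + 1) scale, with its 95% interval, black where the adjusted p was below 0.05 and grey where it was not, and an open circle for Bcl6 where no test was made. Bcl6 and Bach2 lie left of 0 and Tle3 and Ski right of 0 in mature memory cells against pre-memory cells, where the Hhex interval of 0.08 to 1.04 is grey.

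The 4 calls between Fractions 6 and 7 were also made with Fraction 7 taken from library 1 alone, where Igj was 46.9 FPKM. In that fit the changes from Fraction 6 were -1.78 for Bcl6 (adjusted p = 1.72e-06, limma), -1.21 for Bach2 (adjusted p = 6.77e-05), 1.17 for Tle3 (adjusted p = 0.00103) and 2.23 for Ski (adjusted p = 0.000144). That of Hhex was 0.82 (adjusted p = 0.107). The spread of the single library is then borrowed from the other groups. All 5 members were at their highest for Fraction 7 in library 1, a library in which 56.8% of all tested genes were the highest of the group. All 5 were likewise at their highest of the group in library 3 of LZ, of Fraction 3 and of Fraction 5, where 29.2%, 40.4% and 33.1% of genes were.

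The balance of the repressors within a library does not change when a library is multiplied by a factor. On the FPKM scale, which is per length of transcript, Bcl6 was 11.6 to 13.1 times Hhex in LZ, 23.0 and 31.0 times in Fraction 2, and 13.0 to 22.4 times in Fraction 3. The ratio was 8.56 to 12.3 in Fraction 5. It dropped to 1.32 and 1.53 in Fraction 6, and 0.216 to 0.268 in Fraction 7. So Hhex RNA exceeded Bcl6 RNA in Fraction 7 and in no other group. Bcl6 against Tle3 went from 11.6 or more in LZ and Fractions 2, 3 and 5 to 2.72 and 3.03 for Fraction 6 and to between 0.299 and 0.398 for Fraction 7. The 2 repressors that fell did not fall in step, since Bcl6 per Bach2 was highest in Fraction 2 at 5.15 and 5.53. It lay between 3.42 and 4.45 for LZ and Fractions 3 and 5, at 2.14 and 2.44 for Fraction 6, and from 1.43 to 1.66 for Fraction 7. Tle3 per Hhex was highest in Fraction 2, at 2.43 and 1.43, and lay between 0.484 and 0.723 in Fractions 6 and 7. These ratios include the sort marker gene or values already tested and are given as a description.

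**Figure D3:**
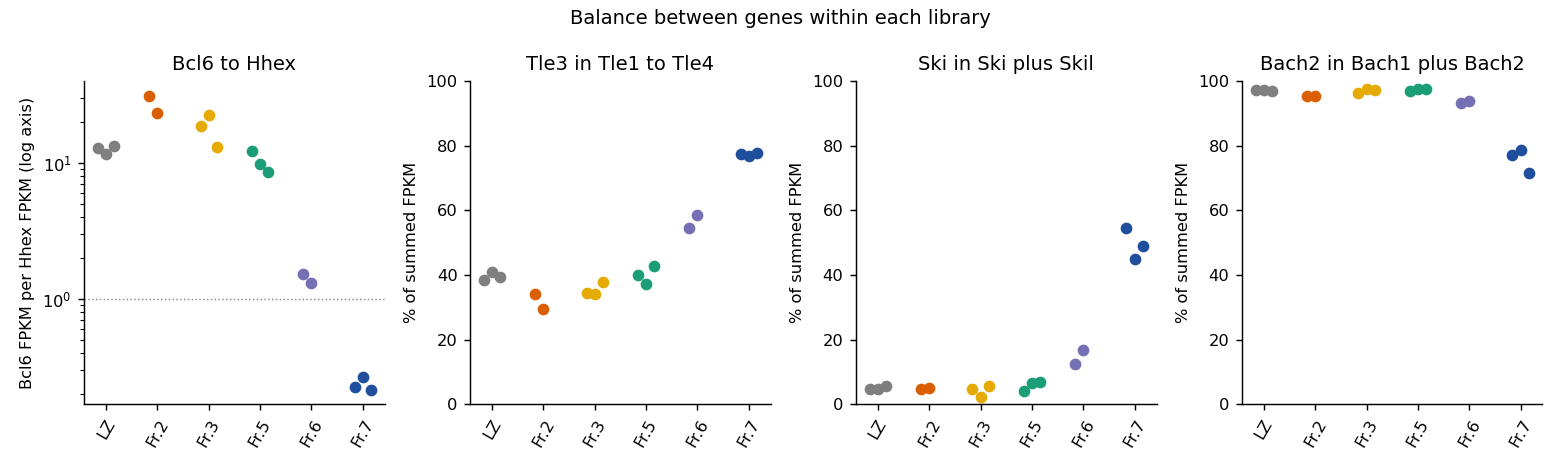
For each library, the ratio of Bcl6 to Hhex FPKM on a log axis, and the share in percent of Tle3 in the sum of Tle1 to Tle4, of Ski in Ski plus Skil and of Bach2 in Bach1 plus Bach2. The ratio is below 1 in the 3 Fraction 7 libraries only, and Tle3 makes up 76.7% to 77.7% of its sum there.

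In mature memory cells the paralogs Tle1 and Tle2, both low in FPKM, were lower than in pre-memory cells, while Tle3 was higher. Bach1 was higher there, while Bach2 was lower. Of 8 paralogs listed, 6 were tested. Of the Groucho genes Tle1, Tle2 and Tle4, Tle4 was the most abundant beside Tle3, with means of 16.8 ± 1.295 (SD, n = 3) FPKM in LZ and 13.7 ± 2.07 (SD, n = 3) in Fraction 7. Tle1 fell from Fraction 6 to Fraction 7 by 0.73 on the log2 scale (adjusted p = 0.00508, limma), from a mean of 2.08 to 0.860 FPKM. Tle2 fell by 0.88 (adjusted p = 0.0093) after being higher in Fraction 5 than in Fraction 3 by 1.00 (adjusted p = 0.00147). Its means were 0.386 to 0.409 FPKM in LZ and Fractions 2 and 3, then 1.83, 1.96 and 0.600 in Fractions 5, 6 and 7. Tle2 reached 1 FPKM in Fractions 5 and 6 alone and passed the filter on low values through them, so its calls are no independent support. Neither Tle1 nor Tle2 was called between Fractions 5 and 6. Tle3 made up 37.1% to 42.8% of the summed Tle1 to Tle4 FPKM in Fraction 5, 54.6% and 58.6% of it in Fraction 6, and 76.7% to 77.7% of it in Fraction 7. Aes (Tle5), a short member of the family without the WD repeats, was by far the most abundant, at 160 to 206 FPKM in group means, and was lower in Fraction 2 than in Fraction 3 by 0.36 (adjusted p = 0.0288). Tle6 was below 1 FPKM in all group means and was not tested. Skil, the paralog of Ski, was 10.7 to 16.6 FPKM in group means and 0.24 lower in Fraction 7 than in Fraction 6 (adjusted p = 0.0395), a call that ended after median-ratio scaling and with Fraction 7 from library 1 alone. Ski was 2.14% to 6.92% of the Ski and Skil sum for LZ and Fractions 2, 3 and 5. This share was 12.5% and 16.7% for Fraction 6 and between 45.0% and 54.4% for Fraction 7. Bach1, a paralog that represses haem oxygenase, rose where Bach2 fell, by 0.37 ± 0.12 from Fraction 5 to Fraction 6 (adjusted p = 0.0408) and by 0.55 ± 0.12 from Fraction 6 to Fraction 7 (adjusted p = 0.00407). The former call ended after quantile normalization. Bach2 still made up 71.6% to 78.5% of the pair in Fraction 7, against 95.3% to 97.7% in LZ and Fractions 2, 3 and 5. Bcl6b stayed at or below 0.350 FPKM in every library and was not tested.

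Genes known as repressed by BCL6 were more often higher than lower in the fractions where Bcl6 was low. From Fraction 5 to Fraction 6, 11 of the 20 listed genes rose and 1 fell, where 7.07% of all genes rose and 10.4% fell, with a median change of 0.52 on the log2 scale against 0.00 over all genes. Of the 20, Prdm1 and Cdkn1a passed the filter on low values through Fraction 7 libraries alone, the group where Prdm1 was highest. Calls of either gene in comparisons with Fraction 7 add no independent support to the counts below. S1pr1, the receptor for egress from lymphoid tissue, rose by 2.90 ± 0.19 (adjusted p = 4.44e-07, limma) from a mean of 4.17 ± 1.115 (SD, n = 3) to 37.3 ± 6.82 (SD, n = 2) FPKM. Ccr6 rose by 1.97 ± 0.14 (adjusted p = 8.91e-07), Gpr183, a guidance receptor for oxysterols, by 1.33 ± 0.15 (adjusted p = 3.35e-05) and Irf4, a regulator of plasma cell differentiation, by 1.04 ± 0.12 (adjusted p = 3.77e-05). The gene that fell was Chek1, a DNA damage checkpoint kinase used in proliferating cells, by -1.03 ± 0.16 (adjusted p = 0.000398). From Fraction 6 to Fraction 7, 9 rose, Prdm1 among them, and 1 fell, where 7.37% and 13.9% of all genes did, with a median of 0.44 against -0.05. S1pr1 rose again by 1.47 ± 0.19 (adjusted p = 0.000112), and the costimulatory ligand Cd80 by 1.26 ± 0.18 (adjusted p = 0.000199), while the survival gene Bcl2l1 fell by 1.13 (adjusted p = 0.000458). Prdm1 was 0.392 ± 0.00698 (SD, n = 2) FPKM in Fraction 6 and 1.78 ± 0.357 (SD, n = 3) in Fraction 7, beside Sdc1 at 0.502, 4.44 and 4.51 FPKM there. It did not exceed 0.772 FPKM in any library of the other groups, so its call is no independent support, and it was lost with Fraction 7 from library 1 alone. In that fit 6 of the 20 rose and 1 fell. From LZ to Fraction 7, 13 rose, again with Prdm1, and 3 fell, where 24.1% and 38.0% of all genes did, with a median of 0.70 against -0.10, and 12 rose and 3 fell with library 1 alone. Quantile normalization gave 12 and 1, 12 and 1, and 15 and 3 in these comparisons.

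Genes of this list also differed between the Bcl6-YFPhi gates. In Fraction 2 against Fraction 3, where Bcl6 was 1.28-fold lower, 6 of the 20 were higher and none was lower, where 9.17% and 6.45% of all genes were, with a median of 0.18 against 0.04. They were Ccnd2, a G1 cyclin, at 1.97 ± 0.17 (adjusted p = 0.00011, limma), Myc at 1.01 ± 0.13 (adjusted p = 0.000787), Irf4 at 0.92 ± 0.12 (adjusted p = 0.000649), Atr, Gpr183 and Trp53. In Fraction 5 against Fraction 3, where the Bcl6 interval was -0.18 to 0.23, 7 were higher and 3 lower, where 9.99% and 19.5% of all genes were, with a median of 0.15 against -0.03. Ccr6 was higher by 1.48 ± 0.13 (adjusted p = 7e-06), Gpr183 by 1.49 ± 0.13 (adjusted p = 8.38e-06) and the cell cycle inhibitor Cdkn1b by 1.00 ± 0.13 (adjusted p = 9.57e-05), and Chek1 was lower by -1.35 ± 0.14 (adjusted p = 2.21e-05). In Fraction 5 against Fraction 2, 6 were higher and 6 lower, where 16.6% and 27.1% of all genes were. Among the lower were Myc at -1.60 ± 0.13 (adjusted p = 1.17e-06) and Irf4 at -0.70 ± 0.12 (adjusted p = 0.00033). The binding of BCL6 to these genes was not measured.

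BCL6 corepressor genes were mostly lower in mature memory cells than in the light zone. Of 18 listed genes 17 were tested, all but Ctbp2. From Fraction 5 to Fraction 6, 4 fell and none rose, where 10.4% and 7.07% of all genes did. From Fraction 6 to Fraction 7, 6 fell and none rose, where 13.9% and 7.37% of all genes did, while quantile normalization gave 3 and 6 that fell and Hdac5 as risen in each step. From LZ to Fraction 7, 13 fell and 1 rose, where 38.0% of all genes fell and 24.1% rose, with a median of -0.51 against -0.10. Under quantile normalization 10 fell and 3 rose, and with Fraction 7 from library 1 alone 10 fell and 2 rose. Ezh2, the polycomb methyltransferase, fell by 1.96 (adjusted p = 2.16e-10, limma) from 57.5 ± 2.16 to 14.03 ± 0.8815 FPKM (SD, n = 3 each). The deacetylase genes Hdac1 and Hdac9 fell by 1.17 (adjusted p = 6.34e-10) and 1.43 (adjusted p = 1.07e-07). Hdac5, a class II deacetylase, rose by 1.06 ± 0.09 (adjusted p = 2.13e-07). In Fraction 2 against Fraction 3, 2 corepressor genes were higher and 2 lower, where 9.17% and 6.45% of all genes were. The higher were Ezh2 at 0.41 ± 0.09 (adjusted p = 0.00955) and Hdac2 at 0.50 ± 0.14 (adjusted p = 0.0285). The lower were Mta3 and Hdac5. In Fraction 5 against Fraction 3, 7 were lower and 1 higher, where 19.5% and 9.99% of all genes were. After quantile normalization these counts were 2 and 1. In Fraction 5 against Fraction 2, 5 were lower and 3 higher, near the shares of 27.1% and 16.6% over all genes. After quantile normalization those counts were 3 and 6.

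**Figure D4:**
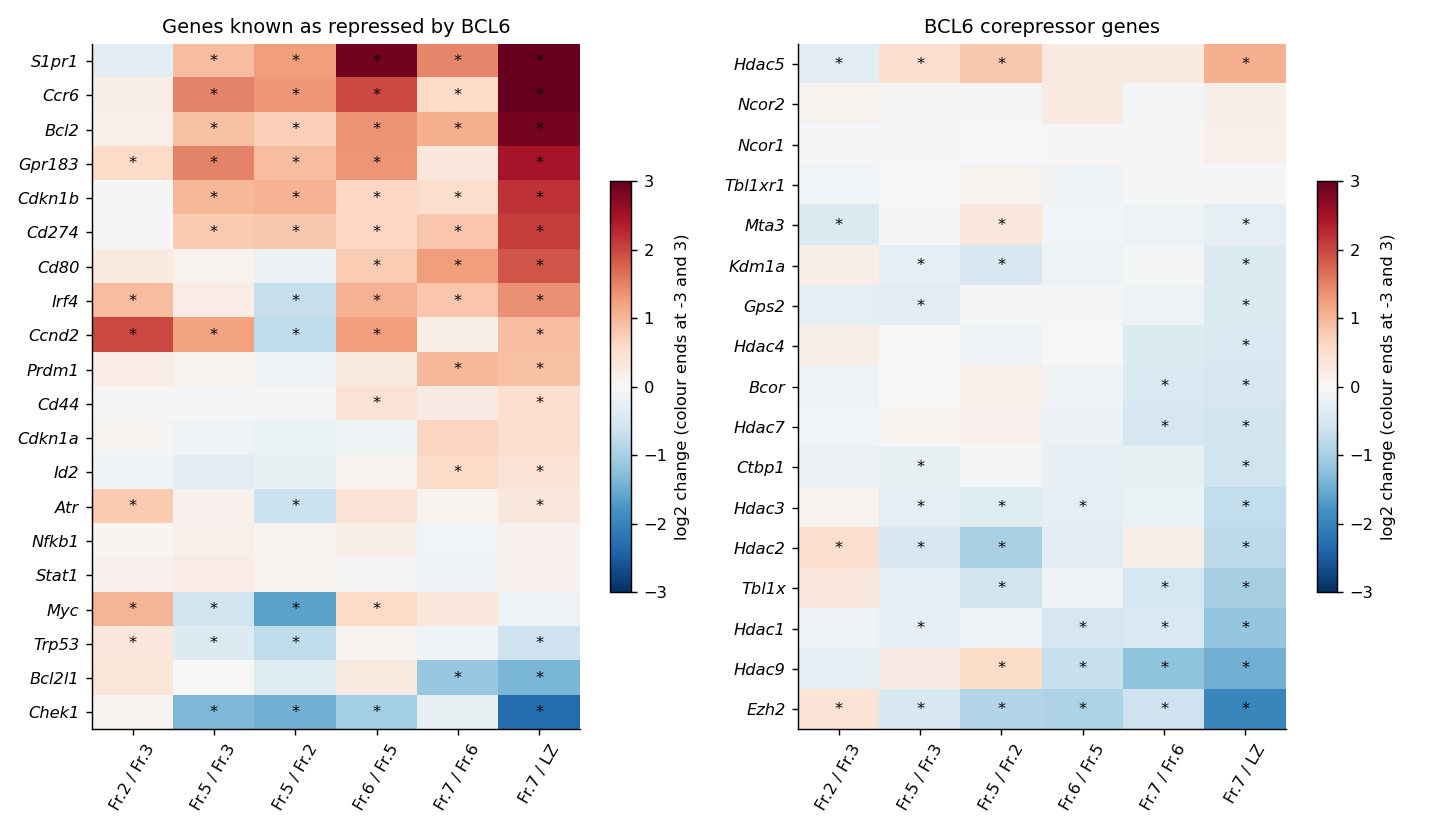
Heat maps of the log2 change of 20 genes known as repressed by BCL6 and 17 tested BCL6 corepressor genes in the 6 comparisons, with a star where the adjusted p was below 0.05. In mature memory cells against the light zone 13 genes of the first list are higher and 13 of the second are lower. Of the first list, Prdm1 passed the filter on low values through Fraction 7 alone.

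Of the factors known to recruit TLE proteins, Runx1, Runx3 and Hes1 were higher in Fraction 7 than in LZ. Of 7 such factors 5 were tested, and Lef1 and Tcf7l2 did not pass the filter on low values. In Fraction 5 against Fraction 3, where the Tle3 interval was 0.05 to 0.57, 4 of the 5 were higher, against 9.99% of all genes. They were Runx3 by 0.57 ± 0.12 (adjusted p = 0.00375, limma), Runx1 by 0.42 ± 0.09 (adjusted p = 0.00473), and Hes1 and Pax5. From Fraction 5 to Fraction 6, 2 rose, where 7.07% of all genes did. Among them was Hes1, a Notch target, by 1.31 ± 0.20 (adjusted p = 0.000373) from 4.31 ± 0.7755 (SD, n = 3) to 12.1 ± 2.12 (SD, n = 2) FPKM. From Fraction 6 to Fraction 7, Tcf7 was called higher and Pax5 fell, where 7.37% and 13.9% of all genes did. Tcf7, which encodes TCF-1, was 3.55 to 8.56 FPKM in Fraction 7 and at most 0.876 in any other library. It passed the filter on low values through Fraction 7 alone, so its call is no independent support. Pax5, which maintains B cell identity, fell by 0.45 (adjusted p = 0.00179), a call lost with Fraction 7 from library 1 alone. In Fraction 2 against Fraction 3 Runx3 was higher and Pax5 lower, where 9.17% and 6.45% of all genes were. In Fraction 5 against Fraction 2 Pax5 and Runx1 were higher, where 16.6% of all genes were. From LZ to Fraction 7, Runx1, Runx3 and Hes1 rose, where 24.1% of all genes did. Tcf7 was called there too, and for the same reason is not counted with them. Pax5 fell by 0.25 (adjusted p = 0.0112), which turned in sign after quantile normalization.

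Of 8 listed BACH2 partners and targets 6 were tested, all but Maff and Hmox1. None was called in Fraction 2 against Fraction 3, where Bach2 was 1.81-fold lower, or in Fraction 5 against Fraction 3, where 9.17% of all genes were higher and 6.45% lower in the former and 9.99% and 19.5% in the latter. In Fraction 5 against Fraction 2, 1 was lower, Mafg, where 27.1% of all genes were lower and 16.6% higher. Quantile normalization gave 3 higher and 1 lower there, with Mafk, Nfe2l1 and Nfe2l2 gained, and Nfe2l1 as higher in Fraction 5 against Fraction 3. Mafk, a small MAF partner, rose from Fraction 5 to Fraction 6 by 0.36 ± 0.09 (adjusted p = 0.0149, limma). Prdm1, which is on the BCL6 list as well, was the only 1 called from Fraction 6 to Fraction 7, through the filter described above, and with Fraction 7 from library 1 alone none was called. From LZ to Fraction 7, Mafk and Nfe2l1 rose, where 24.1% of all genes did. Prdm1 was called there too, but its call is no independent support. Of 9 SKI and Smad genes 8 were tested, all but Smad1. Smad3, which carries TGF-beta signals to the nucleus, rose from Fraction 6 to Fraction 7 by 1.01 ± 0.18 (adjusted p = 0.00112), from 3.215 ± 0.392 (SD, n = 2) to 7.50 ± 0.551 (SD, n = 3) FPKM. It was the only 1 of the 8 called there, where 7.37% of all genes were called higher and 13.9% lower. None of the 8 was called from Fraction 5 to Fraction 6, where Ski rose, or in Fraction 2 against Fraction 3. Of all genes, 7.07% and 9.17% were called higher in these comparisons, and 10.4% and 6.45% lower. Tgfbr2, a TGF-beta receptor gene, was higher in Fraction 5 than in Fraction 3 by 0.56 ± 0.10 (adjusted p = 0.00104). From LZ to Fraction 7, 3 of the 8 rose and 1 fell, where 24.1% and 38.0% of all genes did.

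The genes whose course over the 16 libraries was most like that of each member were sought among 8660 genes with a group mean of at least 5 FPKM, by Pearson correlation of log2(FPKM + 1). The libraries fall into groups, so high values are common and are given as a description. For Bcl6 the nearest were S1pr2 (r = 0.997), a germinal centre receptor that went from 140 FPKM in LZ to 35.2 in Fraction 6 and 4.27 in Fraction 7, then Sypl, Dcaf12, Xrcc1 and Lcp2 (0.996 to 0.993). For Bach2 they were Rhoh (0.988), a haematopoietic GTPase, Pitpnc1, Coro7, Pqbp1 and Tmem64 (to 0.984). For Hhex they included Cytip (0.991), Vim, Klf2 and Il10ra (to 0.983), and Klf2, a quiescence and migration factor, went from 9.02 FPKM in Fraction 2 to 174 in Fraction 6 and 236 in Fraction 7. For Tle3 they were Kbtbd11 and Scml4 (both 0.991), Cybasc3, Ccbp2 and Ckap4 (to 0.985). For Ski they were Fam46a and Cd97 (both 0.992), Spn, Ckap4 and Atxn1 (to 0.989), so that Ckap4 was near both Tle3 and Ski. Among the members Tle3 and Ski were closest (r = 0.981), followed by Hhex with Tle3 (0.948) and Bcl6 with Bach2 (0.944). The most opposite pair was Bcl6 and Ski (r = -0.972), and Bach2 and Hhex were the least so of the opposed pairs (r = -0.624).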

How the data were processed

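Per the labels' protocols, TRIzol-extracted RNA went into NEBNext Ultra RNA libraries, a kit without strand marking. The authors deposited 1 table of FPKM values, and TopHat2 2.0.8, Cufflinks 2.1.1 and mm9 are named in the submitters' processing notes. The annotation and any filters are not given in the sources used here, and FPKM values give no read numbers, so counting error could not be set apart from other spread.

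From the deposited FPKM values, limma 3.58.1 (R 4.3.3) was fitted to log2(FPKM + 1) with a mean trend, 6 group means and all 16 libraries, which share 1 estimate of spread. Fold changes in the text are ratios of mean FPKM, and log2 changes are on the log2(FPKM + 1) scale. The test covered the 11266 genes that reached 1 FPKM in 2 or more libraries, and 1 row without a name was left out. P-values were adjusted by Benjamini-Hochberg over all genes within each of the 15 pairs of groups, of which 6 are reported as comparisons, with a threshold of 0.05. Bcl6 was tested in 4 pairs. On simulated data with 200 changed genes among 11266, a log2 change of 1 was recovered for 91.5% of them in Fraction 2 against Fraction 3 and a change of 0.5 for 39%. The changed genes were drawn from those with a mean log2(FPKM + 1) above 2, so these shares do not cover genes as low as Ski. The noise was normal and independent, and more genes were called in the data than were changed in the simulation.

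Whether libraries of 1 group stem from different mice or sorts is not given in the labels. P-values therefore rest on the spread between these libraries alone, and that spread may be technical. Members, gene lists and markers were chosen with earlier results of these data known. The listed genes named are at most 6 per list and comparison, by smallest adjusted p, and every paralog. Alternatives were other scalings (quantile normalization, median ratios), a pseudocount of 0.1, a filter at 5 FPKM or none, a fit of only the groups compared, the replicate number as a block, and each library left out in turn. Fraction 7 from library 1 alone was added after the data were seen. Motifs were searched on both strands of RefSeq promoter windows, and gene overlaps in GENCODE M21, both on GRCm38, with no coordinates carried over from mm9.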

Additional observations from a re-analysis of the deposited data

How the results depend on the processing

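Among the 6 comparisons, the members' calls that depended on the processing lay in Fraction 2 against Fraction 3, in Fraction 5 against Fractions 2 and 3 and, for Hhex, in Fraction 7 against Fraction 6. After quantile normalization Tle3 in Fraction 5 against Fraction 3 (0.40) and Hhex in Fraction 7 against Fraction 6 (0.66) passed the threshold, and Bcl6 was -1.26 in Fraction 6 against Fraction 5 and -2.86 in Fraction 7 against LZ. With median-ratio scaling the same calls were gained (0.35 and 0.63), and Ski in Fraction 2 against Fraction 3 turned from 0.00 to -0.01. Without a filter Bcl6 (-0.35) and Hhex (-0.85) lost their calls in Fraction 2 against Fraction 3, and 1121 genes were called there instead of 1760. In fits of only the groups compared, Bcl6 (-0.35) and Hhex (-0.85) in Fraction 2 against Fraction 3 and Hhex in Fraction 5 against Fraction 3 (0.76) lost theirs, with 1108 genes called in Fraction 2 against Fraction 3 and 1248 in Fraction 7 against Fraction 6 instead of 2393. With Fraction 7 from library 1 alone, Bcl6 was -2.94 against LZ and 1589 genes were called against Fraction 6. The causes were not tested.

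The replicate numbers gave no clear pairing of the libraries, in a check that cannot show whether libraries shared a sort or pool. Over 36 pairs of same-numbered libraries the correlation of deviations from the group means was -0.184 to 0.155, and 5 pairs were above 0.1. Over 70 pairs with other numbers it was -0.155 to 0.183. Of 16 libraries, 8 correlated best with their own number. In groups of 2 libraries the deviations mirror each other, which fixes part of these values. With the replicate block, Bcl6 in Fraction 2 against Fraction 3 (-0.35, adjusted p = 0.0653, limma) lost its call and Tle3 in Fraction 5 against Fraction 3 (0.31, adjusted p = 0.0293) gained one.

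With 1 library left out at a time, Fraction 2 against Fraction 3 gave -0.41 to -0.29 for Bcl6, -1.03 to -0.58 for Hhex and -0.14 to 0.13 for Ski. Fraction 5 against Fraction 3 gave -0.03 to 0.09 for Bcl6, 0.59 to 1.03 for Hhex and 0.22 to 0.43 for Tle3. Fraction 5 against Fraction 2 gave 0.36 to 0.40 for Bcl6 and 0.38 to 0.68 for Tle3, and Ski in Fraction 3 against LZ ranged from -0.24 to 0.03, reaching 0.03 without library 2 of Fraction 3. Ski in Fraction 2 against Fraction 3 was -0.01 without library 2 of Fraction 2. Where this left 1 library in a group, it is assumed to vary like the others. Counts of called genes ranged from 660 to 1411 in Fraction 2 against Fraction 3, 1152 to 1817 in Fraction 6 against Fraction 5 and 1334 to 2491 in Fraction 7 against Fraction 6. The lowest counts came without library 2 of Fraction 2, library 1 of Fraction 6 and library 2 of Fraction 6. Every call of a member between Fractions 5 and 6, between Fractions 6 and 7 and between LZ and Fraction 7 held under all of these alternatives.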
